A study of Mus musculus with 30 samples.

Results

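Genes of the limb's covering epithelium were followed through cultures of mouse limb mesenchyme, the loose tissue that gives rise to the limb's cartilage. The set holds 34 genes chosen by name: cadherins, claudins, keratins, desmosome parts, epithelial transcription and splicing factors, surface proteases with their inhibitors, and a few others of ectoderm or of the apical ridge at the limb's tip. All 34 had a probe set, out of 45101 on the array. The brightest probe set stood for each gene. A gene was tested where that probe set lay above its array's 40th percentile on at least 2 arrays, which 30 of the 34 did, among 15136 genes in all.

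Cells came from CD-1 embryos at stage E10.5, with about 280 embryos behind the cultures, and no genetic change is given. The early population is distal hindlimb, the intermediate population distal forelimb and the late population proximal forelimb. Each has a day 0 control group, and for both day 1 and day 2 a control group and a group grown with 20 ng/ml BMP4, a bone morphogenetic protein, present from time 0. The 15 groups hold 2 arrays each, labelled biological replicates, so the p-values measure the spread between arrays of that kind. All groups share serum-containing medium, dissociation with protease and plating as dense drops, and the labels do not mention removal of the ectoderm.

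The limb bud is mesenchyme under a thin sheet of ectoderm, and at the rim that sheet thickens into the apical ectodermal ridge, a source of FGF signals. Epithelial cells hold together through E-cadherin junctions, desmosomes anchored to keratin filaments, and tight junctions built from claudins. The transcription factors p63 and grainyhead-like switch many of these genes on, while ZEB and SNAI repressors bind short CACCTG sequences, called E-boxes, in some of their promoters.

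Promoter sequences are shown for genes whose level differed between days or media, and for Epcam, because they carry that E-box. The source is RefSeq on GRCm38.p6, whose windows run from 250 bases before a gene's start to 50 after it. Such a window was given for 20 of the 34 genes (21 windows). The 200 bases before the start follow, read 5′ to 3′ on the gene's strand, with CACCTG or its reverse complement CAGGTG in capitals.
Epcam: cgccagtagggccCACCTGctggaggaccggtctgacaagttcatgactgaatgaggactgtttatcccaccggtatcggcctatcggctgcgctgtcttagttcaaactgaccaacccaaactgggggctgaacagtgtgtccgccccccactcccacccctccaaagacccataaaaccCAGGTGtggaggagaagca
Cldn6: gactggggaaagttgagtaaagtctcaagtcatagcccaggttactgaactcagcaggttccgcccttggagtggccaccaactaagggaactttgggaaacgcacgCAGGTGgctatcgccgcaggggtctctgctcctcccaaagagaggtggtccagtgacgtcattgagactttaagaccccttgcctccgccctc
Cldn7: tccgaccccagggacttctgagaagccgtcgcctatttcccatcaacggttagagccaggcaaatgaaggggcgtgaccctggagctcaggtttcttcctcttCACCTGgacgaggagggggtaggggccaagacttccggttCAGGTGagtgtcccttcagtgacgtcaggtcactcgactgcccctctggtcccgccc
Spint2: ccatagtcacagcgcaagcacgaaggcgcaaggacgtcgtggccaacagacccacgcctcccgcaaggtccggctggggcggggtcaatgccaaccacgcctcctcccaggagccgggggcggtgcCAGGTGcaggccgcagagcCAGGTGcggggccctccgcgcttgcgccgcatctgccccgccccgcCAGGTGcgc
The Epcam stretch is chr17:87635779-87635978 on the plus strand, with E-boxes 187 and 19 bases before the start. The Cldn6 stretch is chr17:23679165-23679364 (plus strand, E-box at 93 bases) and that of Cldn7, from the second of its 2 windows, is chr11:69965221-69965420 (plus strand, at 97 and 57 bases). Spint2 has 3 of them, at 74, 55 and 9 bases, in chr7:29281978-29282177 on the minus strand. On either strand, CACCTG occurred in 15 of the 21 windows (71.4%), against 20.2% of all 32851 windows and 19.2% of the 15365 windows of tested genes. The sequence GGGCGG, bound by SP and KLF factors, occurred in 13 of 21 (61.9%, against 57% for tested genes). The AP-2 sequence GCCNNNGGC was found in 8 (38.1%, against 23.4%), and the grainyhead-like sequence AACCNGTT in 2, Sfn and Rab25 (9.5%, against 1.87%). Of the 9 windows of genes lower at day 1 than at day 0, described below, 6 held the E-box. These motifs were searched separately, and a match describes letters in the window, not binding.

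Before the results, a doubt about the day 0 labels needs stating. Pitx1, a hindlimb factor, read 9.74 on the first early array of day 0 but 5.90 on the second, and 6.15 and 9.43 on the intermediate arrays. Tbx5, its forelimb counterpart, ran the other way, at 4.47 and 8.50 in the early and 8.47 and 4.68 in the intermediate arrays. Meis2, a proximal limb gene, was 9.60 and 7.53 on the late arrays. Mean differences averaged over the 3 populations do not depend on which of them a day 0 array belongs to, so they come first below. Their standard errors and p-values can depend on it. The fit takes the spread between arrays of a group from every group, day 0 included, also for comparisons without day 0 arrays. Changes from day 0 to day 2 by population are given with and without the 3 replicate 2 arrays of day 0. Levels are log2(signal + 16) of the deposited signal, and a difference of 1 on that scale is a doubling for a bright gene and more than a doubling of the signal for a dim one. Errors with a ± are standard errors of the limma fit unless marked SD.

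Mesenchymal genes were bright at every stage. The mean of a list of 12 mesenchymal genes and epithelial repressors ranged from 9.52 to 10 at day 0 and from 9.95 to 10.47 on later arrays. At day 0 the mean level was 10.99 for Vim, a mesenchymal filament protein, and 10.70 for Prrx1, a limb mesenchyme factor. The epithelial genes were nonetheless measurable. Among the 6 day 0 arrays the brightest were Cdh3 (P-cadherin; mean 7.91), Krt18 (7.84) and Krt8 (7.81), the keratin pair of simple epithelia. The filter value of an array lay between 5.18 and 5.54 on the same scale. Levels of different genes are not comparable between probe sets, so these figures say only that the signals stood above it.

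The other 4 genes did not pass the filter. Krt15, a basal keratin, stayed between 4.09 and 4.41 on all 30 arrays, and Rab25, a vesicle-trafficking protein of epithelia, between 4.51 and 5.25. Prss8, a membrane-anchored protease, lay above its array's 40th percentile on 1 array and had a median of 4.38. Sfn, the 14-3-3 protein of stratified epithelium, had a median of 4.19 and its highest value, 5.39, on replicate 1 of the early day 2 BMP4 cultures. Others passed through few arrays: Esrp1 through 5, all of day 0, Pkp1 through 2, Cldn3 through 9 and Dsc2 through 10. Krt14 (13 arrays) and Krt19 (24 arrays) passed through no day 0 array. A gene that passed only where it is high had to differ between days, so counts over the tested genes are descriptive.

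**Figure D1:**
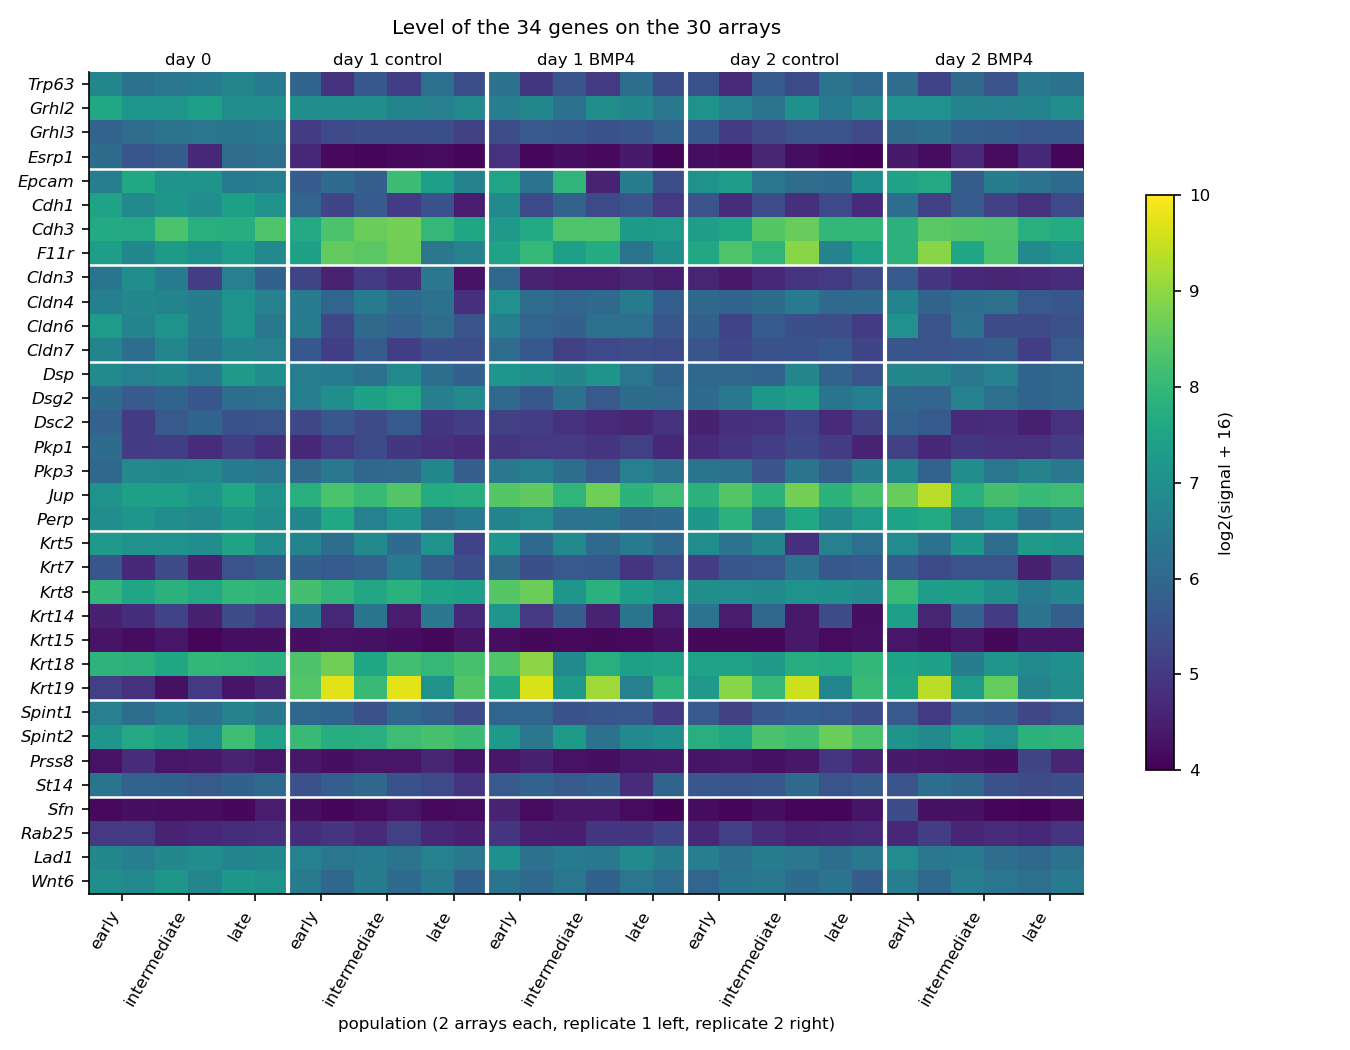
Level of all 34 genes, as log2(signal + 16), on the 30 arrays; columns are arrays grouped by day and medium, replicate 1 left of replicate 2, and white lines part the groups and gene roles. Esrp1 is dark outside day 0, while Krt19 is dark at day 0 and at 6.62 or above on every later array.

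Over the first day in control medium Cdh1, the 4 tested claudins and 3 of 4 regulators of epithelial identity went down, while 2 keratins, 2 desmosome genes and Spint2 went up. Of the 30 tested genes 11 fell and 5 rose (limma, adjusted p under 0.05 over all 15136 genes, 6 arrays against 6). Of all genes tested, 39.5% were called in this comparison (22.5% higher, 17% lower). The median difference was -0.32 for the 30 genes and -0.00 for all genes. In these mixed cultures, fewer epithelial cells and less RNA per epithelial cell cannot be told apart.

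Cdh1, which encodes E-cadherin, the adhesion protein of epithelial junctions, ranged from 6.84 to 7.45 at day 0 (median 7.13) and from 4.45 to 5.96 in day 1 control cultures (median 5.39). Every day 1 array lay below every day 0 array. Cdh1 fell by 1.82 ± 0.28 (adjusted p = 1.77e-05), a 3.54-fold decrease on this scale. The related Cdh3 did not follow, with a difference of 0.23 ± 0.14 (adjusted p = 0.197). F11r, a junctional adhesion molecule, was at 0.59 ± 0.24 (adjusted p = 0.0601).

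Epcam, an epithelial surface adhesion protein, gave different answers from its 2 probe sets. The brighter one, used by the rule, differed by -0.25 ± 0.43 (adjusted p = 0.684), and its replicates lay far apart, at 5.81 and 8.12 in intermediate day 1 control and at 7.92 and 4.60 with BMP4. Its name ends in x_at, the array maker's mark for probes that may match other transcripts. The other ranged from 6.39 to 7.20 at day 0 (median 6.96) and from 4.25 to 5.78 in day 1 control (median 4.77), without overlap. It fell by 1.90 ± 0.30 (adjusted p = 4.2e-05, fitted with all probe sets kept; this look was added after seeing the data). Over the 30 arrays the probe sets correlated at r = 0.161, a description over arrays that share groups.

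The tested claudins, tight junction proteins, fell in 4 of 4 cases. Cldn7 ranged from 6.16 to 6.75 at day 0 (median 6.66) and from 5.10 to 5.75 at day 1 (median 5.45), with no overlap, and fell by 1.13 ± 0.15 (adjusted p = 5.47e-06). Cldn3 fell by 1.19 ± 0.31 and Cldn6 by 0.93 ± 0.26, each with overlapping arrays. For Cldn4 the arrays did not overlap and the decrease was 0.72 ± 0.21 (adjusted p = 0.00812). Cldn3 read 6.39 on replicate 1 of the late day 1 control cultures and 4.30 on replicate 2, an unequal pair.

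Regulators of epithelial identity moved the same way in 3 of 4 genes. Esrp1, a splicing factor of epithelial transcripts, ranged from 4.69 to 6.21 at day 0 (median 5.95) and from 4.08 to 4.69 at day 1 (median 4.15). It fell by 1.54 ± 0.19 (adjusted p = 1.86e-06) but, having passed the filter only through day 0 arrays, it had to differ. Grhl3, a grainyhead-like factor, ranged from 5.92 to 6.42 at day 0 and from 5.07 to 5.47 at day 1, and fell by 0.93 ± 0.12 (adjusted p = 1.67e-06). Trp63, the p63 factor of surface ectoderm, had no overlap either (lowest day 0 array 6.26, highest day 1 array 6.20) and fell by 0.97 ± 0.25 (adjusted p = 0.00339). Its next probe set was dim and differed by -0.14 ± 0.16 (adjusted p = 0.558). Grhl2 was at -0.34 ± 0.14 (adjusted p = 0.0608) on its brightest probe set, while its second fell by 0.88 ± 0.22 (adjusted p = 0.00279).

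**Figure D2:**
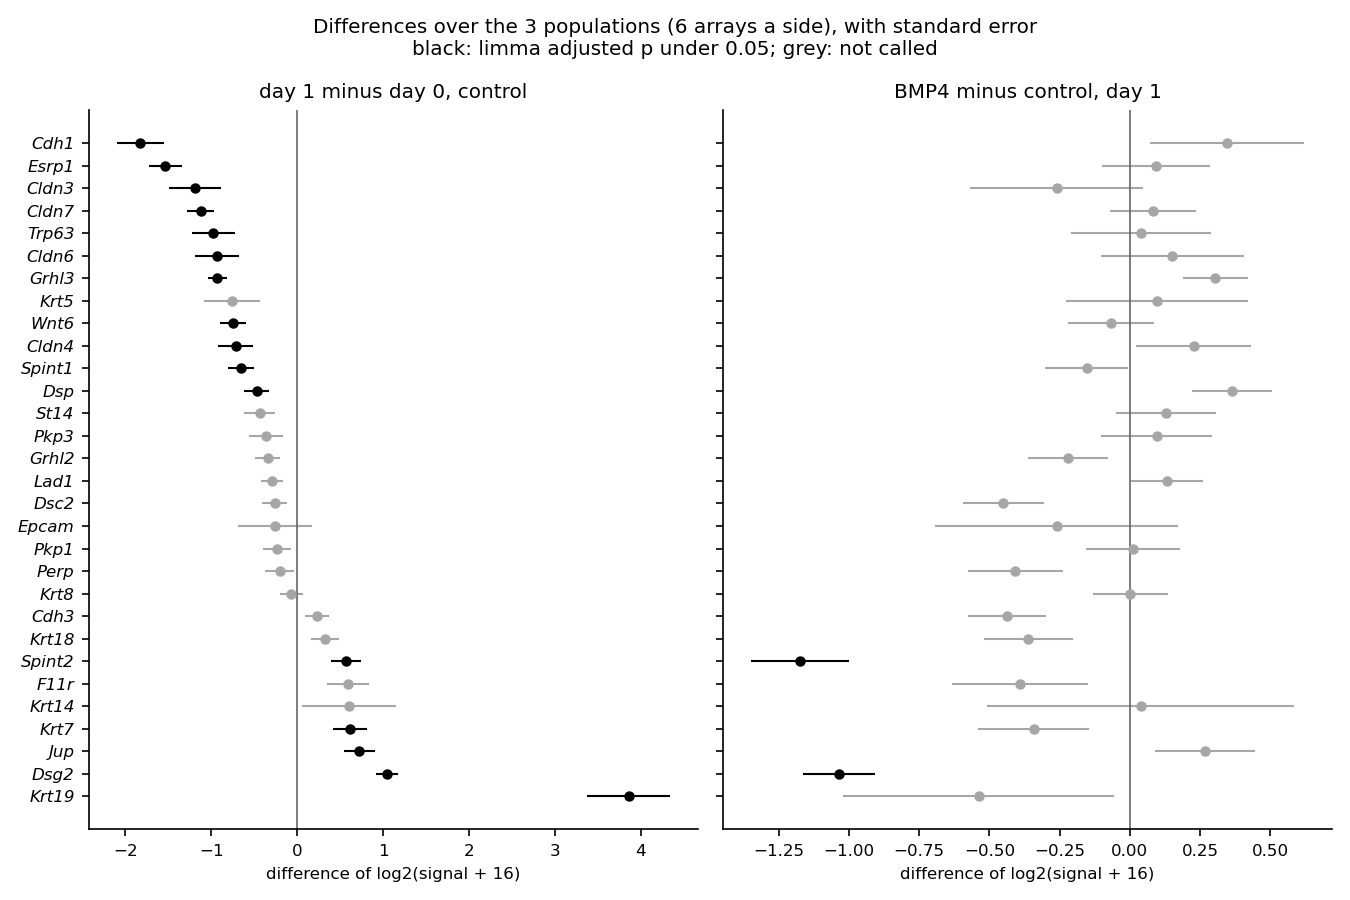
Difference of log2(signal + 16) with its standard error for the 30 tested genes, for day 1 minus day 0 in control medium (left) and BMP4 minus control at day 1 (right, on a narrower axis), 6 arrays a side; black points passed an adjusted p of 0.05. Cdh1 lies farthest left and Krt19 farthest right in the first panel, and Spint2 and Dsg2 are the black points of the second.

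Keratins, the filament proteins of epithelia, split. Krt19, a keratin of simple epithelia and of some mesothelial and stromal cells, ranged from 4.27 to 5.13 at day 0 (median 4.72) and from 7.07 to 9.75 in day 1 control cultures (median 8.38). The groups lay far apart. Krt19 rose by 3.86 ± 0.48 (adjusted p = 1.75e-06), a 14.5-fold increase. It was below the filter on every day 0 array and passed only through later ones, so it had to differ. The size of the rise also depends on the added 16. Krt7 rose by 0.61 ± 0.20 (adjusted p = 0.0165), a call that was lost without the 3 doubted arrays (0.37, adjusted p = 0.213). Krt5, the basal keratin of ectoderm, was at -0.76 ± 0.32 (adjusted p = 0.0692), and its partner Krt14 at 0.61 ± 0.55 (adjusted p = 0.411). Krt8 and Krt18 were at -0.07 ± 0.14 and 0.33 ± 0.16, neither called.

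Desmosome genes also split. Dsg2, a desmosomal cadherin present in many tissues, ranged from 5.60 to 6.21 at day 0 (median 6.03) and from 6.57 to 7.65 at day 1 (median 6.90), without overlap, and rose by 1.04 ± 0.13 (adjusted p = 1.38e-06). Jup, plakoglobin, which serves both desmosomes and cadherin junctions, rose by 0.73 ± 0.18 (adjusted p = 0.0026), again without overlap. Dsp, the plaque protein desmoplakin, fell by 0.47 ± 0.14 (adjusted p = 0.0121), a call lost without intermediate day 1 control replicate 1. The differences of Dsc2 (-0.26), Pkp1 (-0.23), Pkp3 (-0.36) and Perp (-0.20) did not pass.

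Among the surface proteases and inhibitors, Spint1 and Spint2, which inhibit the protease matriptase, went opposite ways. Spint1 ranged from 6.18 to 6.68 at day 0 and from 5.40 to 6.01 at day 1, and fell by 0.66 ± 0.15 (adjusted p = 0.00126). Spint2 rose by 0.57 ± 0.18 (adjusted p = 0.0134) with overlapping arrays, and without the 3 doubted arrays it was at 0.45 (adjusted p = 0.101). St14, matriptase itself, was at -0.44 ± 0.18 (adjusted p = 0.0572). Wnt6, a WNT ligand of the limb ectoderm, fell by 0.75 ± 0.15 (adjusted p = 0.000512), with all day 1 arrays below all day 0 arrays. Lad1, a basement membrane anchor protein, was at -0.29 ± 0.13 (adjusted p = 0.0775).

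**Figure D3:**
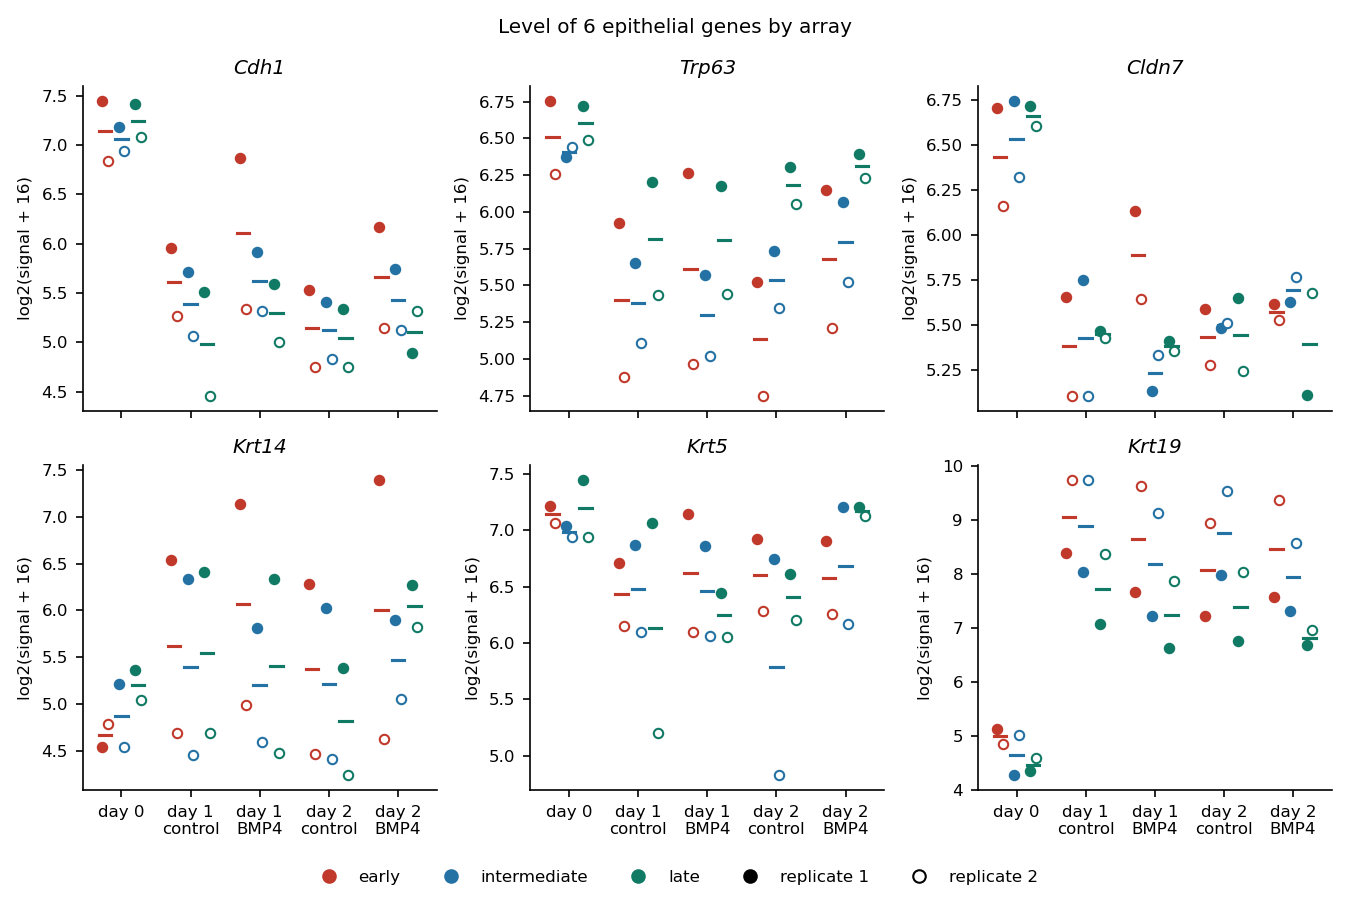
Level of 6 genes on each array as log2(signal + 16), by day and medium; colour marks the population, filled circles are replicate 1, open circles replicate 2 and bars group means, and each panel has its own axis range. Cdh1, Trp63 and Cldn7 have their highest group means at day 0, Krt19 is lowest there, and Krt14 is parted by replicate number at days 1 and 2.

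Other genes of ectoderm are set beside these changes and the same 39.5% of all genes called (22.5% higher, 17% lower). Of 12 tested ridge and limb ectoderm signals 3 fell over the first day and 0 rose. They were Fgf8, the FGF of the apical ridge (-1.32 ± 0.27, adjusted p = 0.000535), Sp8, a ridge transcription factor (-0.54 ± 0.12), and En1, a ventral ectoderm factor (-0.38 ± 0.14). Their mean levels at day 1 were 4.48, 4.99 and 4.69, below the filter values of 5.18 to 5.54. En1 lay below those values at day 0 too (5.07). At day 2 Fgf8 and Sp8 were still called lower than at day 0 (-1.46 and -0.85), but En1 was not (-0.09). Of 14 other epithelial genes 5 fell and 0 rose, led by the AP-2 factors Tfap2c (-2.07 ± 0.20) and Tfap2a (-1.56 ± 0.16), which limb mesenchyme also uses, and by Ap1m2, a sorting adaptor of epithelia (-1.31 ± 0.31). Periderm and stratification genes had 2 higher (Krt6a at 0.69, Klf5 at 0.56) and 3 lower (Ovol1, Krt4 and Ppl) of 10. Basement membrane genes had 2 higher (Dst at 0.89, Fras1 at 0.61) and 0 lower of 7.

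Markers of other cells moved over the same day. Red cell genes fell in 5 of 5, and the mean of the list ranged from 8.63 to 10.51 on day 0 arrays and from 4.68 to 5.49 on day 1 control arrays. Endothelial genes fell in 9 of 12, with Erg rising, from a list mean of 5.98 to 6.69 at day 0 to 5.42 to 5.68 at day 1. Among mesenchymal genes and epithelial repressors 4 rose (Vim, Col1a1, Zeb2 and Prrx1) and Twist1 fell, of 12. Zeb2, a repressor of Cdh1, was at 6.21 at day 0 and 6.98 at day 1, a rise of 0.76 ± 0.19 (adjusted p = 0.00234). The other ZEB and SNAI repressors of this list, Zeb1, Snai1 and Snai2, were not called. Whether any of them acted on these genes was not tested. Skeletal muscle genes rose in 8 of 8. The part of these other cells in the epithelial changes was not tested.

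On the second day in control medium little more changed. Of the 30 genes 2 fell and 0 rose, against 8.55% of all genes called (5.61% higher, 2.94% lower). Krt8 ranged from 7.39 to 8.24 at day 1 (median 7.72) and from 6.88 to 7.07 at day 2 (median 6.93). The groups did not overlap, and Krt8 fell by 0.80 ± 0.14 (adjusted p = 0.000624). Krt18, its filament partner, fell by 0.57 ± 0.16 (adjusted p = 0.0273), and that call was lost in 7 of 12 fits without 1 array.

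From day 0 to day 2 as a whole, 16 genes fell and 5 rose, against 48.5% of all genes called (26.9% higher, 21.5% lower). This comparison shares its day 0 arrays with the first. Cdh1 was at -2.05 ± 0.28, Cldn6 at -1.40 ± 0.26 and Krt19 at 3.38 ± 0.48. The calls that day 1 had not made were Krt5 (-0.84), Krt8 (-0.87), Dsc2 (-0.71), Grhl2 (-0.47) and Lad1 (-0.38), all lower, and F11r (0.72), higher. Without the 3 doubted arrays the counts were 14 lower and 4 higher, and the calls of Krt5, Lad1 and F11r were lost.

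By population the day 2 minus day 0 changes were alike in direction for the strongest genes. The early population had 12 lower and 2 higher, against 24.1% of all genes called (9.31% lower, 14.8% higher). The intermediate population had 7 and 6, against 30.3% (12.7% lower, 17.6% higher), and the late 9 and 1, against 27.5% (10.6% and 16.9%). Cdh1 was at -2.01 ± 0.48, -1.94 ± 0.48 and -2.21 ± 0.48 in that order. The mean level of Cldn7 went from 6.43 to 5.43, from 6.54 to 5.50 and from 6.66 to 5.44, each called. Krt19 was at 3.10, 4.13 and 2.93 (each ± 0.84). Without the doubted arrays each population has 1 day 0 array, assumed to vary like the other groups. In that smaller fit 9 were lower and 0 higher in the early population, 5 and 2 in the intermediate, and 9 and 0 in the late. Krt19 was then at 2.96 in the early and 3.05 in the late population, neither called. Whether the populations differed in these changes was not tested.

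BMP4 was compared with control medium to see how these genes responded to the signal. At day 1, over the 3 populations, 2 of the 30 genes fell with BMP4 and 0 rose, against 6.3% of all genes called (3.6% higher, 2.7% lower). The epithelial genes that had fallen since day 0, such as Cdh1 (0.35 ± 0.28, adjusted p = 0.538) and Trp63 (0.04 ± 0.25, adjusted p = 0.957), were not called in either direction.

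Dsg2 read 6.59 and 6.97 in early, 7.43 and 7.65 in intermediate and 6.57 and 6.82 in late control cultures of day 1. With BMP4 the values were 6.05 and 5.65, 6.25 and 5.68, and 6.13 and 6.06. All 6 BMP4 arrays lay below all 6 controls, at 5.65 to 6.25 beside 5.60 to 6.21 at day 0. Dsg2 fell by 1.04 ± 0.13 (adjusted p = 4.48e-05), and a second probe set fell by 0.99 ± 0.14 (adjusted p = 0.000285). The next 2 probe sets, both dimmer, were at -0.31 and -0.38, neither called, and had not been called between day 0 and day 1 either (0.10 and 0.27). Within populations Dsg2 was called in the early (-0.93 ± 0.22, adjusted p = 0.0269) and intermediate cultures (-1.58 ± 0.22, adjusted p = 0.0022), and the late value was -0.60 ± 0.22 (adjusted p = 0.474). The early call was lost in 3 of 4 fits without 1 array and in 2 of 11 other settings, and the intermediate call in 2 of 4 and 1 of 11. Dsg2 was the only one of the 30 called there, against 2.45% of all genes in the early population (1.53% higher, 0.918% lower) and 0.238% in the intermediate (0.172% higher, 0.0661% lower). In the late population 0 of the 30 were called, against 0.0793% of all genes (0.0661% higher, 0.0132% lower). At an unadjusted p under 0.05 there were 4 of the 30 and 1144 of all 15136 genes.

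Spint2 read 8.05 and 7.73, 7.79 and 8.13, and 8.24 and 8.09 in the control cultures of day 1, in the same order of populations. With BMP4 it read 7.22 and 6.39, 7.26 and 6.26, and 6.84 and 7.02, below every control. It fell by 1.17 ± 0.18 (adjusted p = 0.000269), and its second probe set fell by 1.04 ± 0.22 (adjusted p = 0.00791). The brightest Spint2 probe set also bears the x_at mark. No single population passed, with values of -1.09, -1.20 and -1.24 (each ± 0.30). The rise of Dsg2 and Spint2 over the first day used the same day 1 control arrays as their fall with BMP4.

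At day 2, 2 genes were lower with BMP4 and 1 was higher, against 1.9% of all genes called (1.18% higher, 0.727% lower). Spint2 fell by 0.76 ± 0.18 (adjusted p = 0.0241) and Dsg2 by 0.53 ± 0.13 (adjusted p = 0.0306), both with overlapping arrays. Their second probe sets were not called, at -0.57 ± 0.22 for Spint2 (adjusted p = 0.244) and -0.41 ± 0.14 for Dsg2 (adjusted p = 0.19). Grhl3 ranged from 5.03 to 5.65 in control (median 5.43) and from 5.63 to 6.17 with BMP4 (median 5.81), so the ranges barely met. It rose by 0.46 ± 0.12 (adjusted p = 0.0433), a call that was lost in 6 of 11 other settings and in 11 of 12 fits without 1 array. Leaving out 1 array also ended the day 2 call of Dsg2 in 9 of 12 fits and of Spint2 in 7 of 12.

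In the early population at day 2, where 5.68% of all genes were called (2.4% higher, 3.28% lower), 2 genes rose and 0 fell. Dsc2, desmocollin, read 4.54 and 4.83 in control and 5.88 and 5.69 with BMP4, a rise of 1.10 ± 0.25 (adjusted p = 0.0136). Grhl3 read 5.65 and 5.03 against 6.07 and 6.17, a rise of 0.78 ± 0.20 (adjusted p = 0.0246). Both calls rest on 2 arrays a side: the Dsc2 call was lost in 3 of 4 fits without 1 array, as was that of Grhl3. Under median centring, 18.5% rather than 42.3% of all called genes in this comparison were higher, and the Grhl3 call was lost. The intermediate and late populations had 0 called genes of the 30 at day 2 (0.00661% and 0.0132% of all genes). At an unadjusted p under 0.05 there were 3 of the 30 in each, and 686 and 712 of all 15136 genes.

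**Figure D4:**
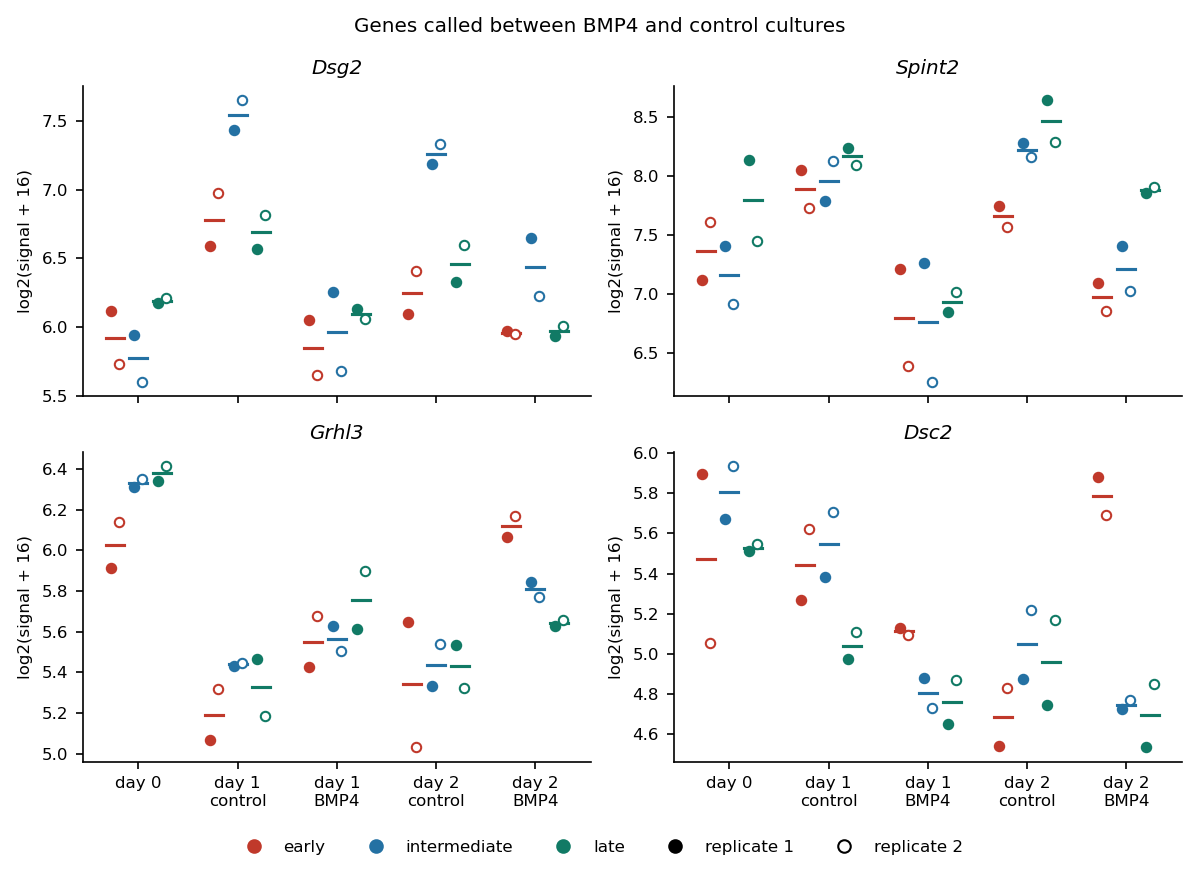
Level of the 4 genes called between BMP4 and control, as log2(signal + 16) on each array by day and medium; colour marks the population, filled circles are replicate 1, open circles replicate 2 and bars group means, with an axis range for each panel. The day 1 BMP4 arrays of Dsg2 and Spint2 lie below all day 1 controls, and Dsc2 is high at day 2 with BMP4 in the early population, above all other arrays of that day.

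No gene of the 30 passed the limma test for a difference of the BMP4 response between populations or between days. At day 1, 0.0264% of all genes passed for early minus late and for early minus intermediate and 0% for intermediate minus late. At day 2 the shares were 0.211%, 0.271% and 0.00661%, and 0.0132% passed between the days. In these 7 comparisons between 0 and 5 of the 30, and between 424 and 1614 of all 15136 genes, had an unadjusted p under 0.05. For Dsg2 at day 1 the response in the intermediate minus that in the late population was -0.98 ± 0.31 (adjusted p = 0.999). The data therefore do not show that the responses differed, nor that they were equal.

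Other gene groups gave their own values with BMP4. Zeb2 rose by 1.24 ± 0.19 at day 1 (adjusted p = 0.000269) and by 0.98 ± 0.19 at day 2, and the mesenchymal cadherin Cdh2 by 0.43 ± 0.11 and 0.46 ± 0.11. Fgf9, an FGF of the ridge, fell by 0.63 ± 0.19 at day 1 (adjusted p = 0.0493), and Cgn, a tight junction plaque protein, by 0.49 ± 0.14. Of the 12 tested ridge and limb ectoderm signals only Fgf9 was called at day 1, beside 6.3% of all genes. Frem2, a protein of the skin basement membrane, rose by 0.60 ± 0.12 at day 1, and Col17a1, a hemidesmosome collagen, by 0.83 ± 0.21 at day 2. Among the 7 tested basement membrane genes no other was called on either day. Frem2 was not called at day 2 (0.35, adjusted p = 0.169), nor Col17a1 at day 1 (0.395, adjusted p = 0.3). The mean level of Col17a1 at day 2 was 4.5 in control, below the filter, and 5.33 with BMP4. Leukocyte genes rose in 4 of 7 at day 1, where 3.6% of all genes were higher, and in 6 of 7 at day 2, where 1.18% were. The mean of that list ranged from 5.62 to 6.35 in day 1 control arrays and from 5.70 to 6.96 with BMP4. The part of leukocytes in the changes of Dsg2 and Spint2 was not tested.

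Populations were also compared over days 1 and 2 in both media, with 8 arrays a side. Against the late cultures, early cultures were higher in 4 genes and lower in 1, with 9.02% of all genes called (3.75% higher, 5.27% lower). F11r, the junctional adhesion molecule, had mean levels of 8.02 and 6.81 and was higher by 1.22 ± 0.21 (adjusted p = 0.000733). Perp, a desmosome membrane protein, Krt8 and Dsp were higher by 0.79 ± 0.15, 0.75 ± 0.12 and 0.63 ± 0.12, and Spint2 was lower, at -0.53 ± 0.15. Arrays overlapped in each case. Of the other probe sets, both of Krt8 were called, but those of F11r (0.11, adjusted p = 0.657; above the filter on 5 arrays), Spint2 (-0.34, adjusted p = 0.3) and Dsp (0.44 and 0.46) were not.

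Intermediate cultures were higher than late ones in 4 genes and lower in 0, with 7.64% of all genes called (2.81% higher, 4.84% lower). F11r was higher by 1.31 ± 0.21, Cdh3 by 0.79 ± 0.12, Dsp by 0.62 ± 0.12 and Dsg2 by 0.50 ± 0.11. For Cdh3 all 8 intermediate arrays lay above all 8 late arrays. The second probe sets of Dsp (0.61, adjusted p = 0.0158) and Dsg2 (0.42, adjusted p = 0.0482) were called as well. Those of F11r (0.025, adjusted p = 0.947) and Cdh3 (0.23, adjusted p = 0.467; above the filter on 22 arrays) were not. Nor were the third of Dsp (0.50, adjusted p = 0.0559) and the next 2 of Dsg2 (-0.12, adjusted p = 0.625, and 0.31, adjusted p = 0.226). Early cultures were higher than intermediate ones in Krt18 (0.64 ± 0.14) and Krt8 (0.47 ± 0.12), and lower in Cdh3 (-0.72 ± 0.12; second probe set -0.29, adjusted p = 0.499) and Dsg2 (-0.59 ± 0.11), with 3.26% of all genes called (1.56% higher, 1.7% lower). The second probe set of Dsg2 was called there too (-0.51, adjusted p = 0.0286), but the next 2 were not (0.08 and -0.42). Beside the 2 comparisons with late cultures, leukocyte genes were higher in 6 and 7 of 7 and skeletal muscle genes lower in 8 and 8 of 8. Their part was not tested.

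At day 0 no gene of the 30, and no gene at all, passed between populations (limma; 0% called). These groups hold the 3 arrays whose population labels are in doubt. The comparison therefore cannot show whether the populations were alike at day 0. At an unadjusted p under 0.05 there were 1, 1 and 3 of the 30 for early minus late, early minus intermediate and intermediate minus late, and 336, 514 and 506 of all genes.

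The replicate number divided several of these genes within groups at days 1 and 2. Krt14 read between 5.39 and 7.40 on the 12 replicate 1 arrays (median 6.31) and between 4.24 and 5.83 on the 12 replicate 2 arrays (median 4.61). Replicate 1 was the higher in all 12 groups, and a second Krt14 probe set also had it higher in 12 of 12, and another in 7. Krt14 passed the filter on 13 arrays, mostly of replicate 1, so its difference between replicates is descriptive. Krt5 and Trp63 had replicate 1 higher in 12 of 12 groups too. Cdh1 had it higher in 11 of 12, as did Esrp1, which lay below the filter on all these arrays. No share of all genes is given for 11 of 12. Of all genes, 1.53% had replicate 1 higher in every one of the 12 groups.

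Krt19 ran the other way. It lay between 6.62 and 8.38 on replicate 1 arrays (median 7.27) and between 6.96 and 9.75 on replicate 2 arrays (median 9.04), and replicate 2 was the higher in all 12 groups. The same held for Jup, Perp and F11r, and for 2.37% of all genes. Red cell genes, as a list mean, were higher in replicate 1 in 12 of 12 groups as well. In the fit of replicate 1 against replicate 2 given below, 2 of the 5 were called, Hbb-y (2.25 ± 0.25) and Hba-x (0.65 ± 0.11). Hbb-bh1 (-0.15), Klf1 (-0.03) and Alas2 (0.02) were not. The labels do not say what the replicate number stands for, and the part of red cells in these differences was not tested.

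**Figure D5:**
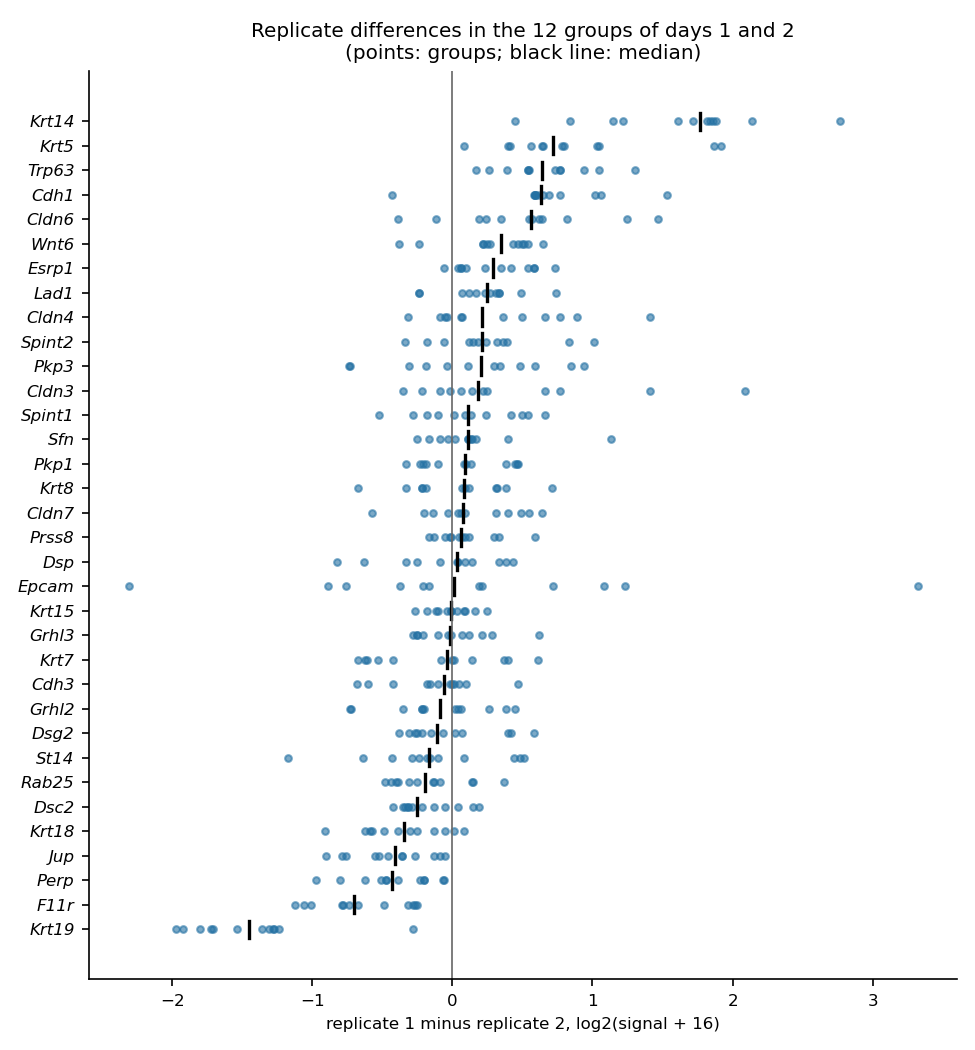
Replicate 1 minus replicate 2 in log2(signal + 16) for the 34 genes; each point is 1 of the 12 groups of days 1 and 2 and the black line is the median. All points of Krt14, Krt5 and Trp63 are above 0, and all points of Krt19, F11r, Perp and Jup below it.

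Across the 30 arrays, the genes nearest to Cdh1 within the set were Cldn7 (r = 0.885), Cldn6 (0.883), Esrp1 (0.861), Wnt6 (0.857) and Spint1 (0.820), while Krt19 (-0.791) and Jup (-0.630) ran against it. These correlations describe arrays that share groups and days. Outside the set, the genes most like Epcam's brightest probe set reached at most r = 0.626 (Usp32, 4930524B15Rik, Dennd6b, Zim3, Hoxa5, Kprp, Hace1, Gp9, Csf2rb2 and Rnf17). Those most like the mean of the 30 genes were Acr (0.761), 1500015A07Rik, Otof, Esam, Rnf220, 8030453O22Rik, Terb2, Dcbld1, Bnc1 and Nufip2 (0.737).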

How the data were processed

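Expression was measured on 30 Affymetrix 430 2.0 mouse arrays. The deposited values are linear signal intensity made by the authors with MAS5, per the submitters' processing notes; each array has the same trimmed mean, and further settings are not stated in the sources used. No detection calls were used. The median intensity of an array was 33.9 to 46.4, and replicates of a group correlated at r = 0.970 to 0.984 across genes. The number of arrays limits the precision.

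Values were used as log2(signal + 16). Probe sets above their array's 40th percentile (20.3 to 30.5) on at least 2 arrays were kept (33198 of 45101; 27577 with 1 symbol in the platform annotation), and the brightest per gene gave 15136 genes. limma 3.58.1 in R 4.3.3 was fitted to all 30 arrays with 15 group means, no block and a mean-variance trend (15 residual and 5.51 prior degrees of freedom), two-sided, with Benjamini-Hochberg adjustment over all genes at 0.05. The fit was tested on simulated data. All genes of the set are named; of further lists, up to 4 genes by smallest adjusted p, and the 10 genes most correlated with Epcam and with the mean of the set. Erg and other list members outside that rule were named after their values were seen. The set and lists were chosen with earlier results of these data known. The alternatives tried were other pseudocounts and filters, median centring, quantile normalization, the mean of a gene's probe sets, a replicate block, fits of only the arrays compared, and fits without single arrays or without the 3 doubted arrays.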

Additional observations from a re-analysis of the deposited data

How the results depend on the processing

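Of 98 calls of these genes over all comparisons, recomputed under the alternatives and without single arrays, 1762 of 1968 values kept the call, 206 lost it and 0 reversed. The day 1 minus day 0 count of 16 lay between 14 and 20 under 11 alternatives. Counts that moved by over 1.5 times were these. BMP4 at day 2 over all populations (3) gave 1 with a pseudocount of 1 or the mean of all probe sets. BMP4 at day 1 gave 4 over all populations without the 3 doubted arrays. BMP4 in the early population at day 1 (1) gave 2 under median centring, quantile normalization, the replicate block or without the doubted arrays, and 0 with the mean of probe sets or only the arrays compared; at day 2 (2) it gave 1 under both scalings, 4 with the mean of probe sets or the replicate block and 0 with only the arrays compared. BMP4 in the intermediate population at day 1 (1) gave 2 with the replicate block and 0 with only the arrays compared, and the late population (0) gave 1 with the block. Early minus late (5) gave 11 with the block, and early minus intermediate (4) gave 2 with only the arrays compared. Day 2 minus day 0 gave 9 in early cultures (14) and 7 in intermediate cultures (13) without the doubted arrays. The replicate block also raised BMP4 at day 2 over all populations from 288 to 609 genes. The labels do not say that a replicate number marks a shared source. Differences between replicates correlated over 0.1 in 60 of 105 pairs of groups (-0.125 to 0.349) and, at days 1 and 2, in 55 of 66 (median 0.164), not in every pair, so the block was kept as an alternative. Without single arrays the counts ran from 1 to 3 for day 2 minus day 1, from 3 to 11, 8 to 10 and 6 to 10 for day 2 minus day 0 in the early, intermediate and late populations, from 0 to 2 for BMP4 at day 2 over all populations and for BMP4 in the early population at either day and the intermediate at day 1, from 4 to 9 for early minus late and from 4 to 7 for intermediate minus late. Median centring changed the share of higher calls among all genes from 65.6% to 76.1% for day 2 minus day 1, from 61.8% to 38% and 62.5% to 42.8% for BMP4 at day 2 over all populations and at day 1 in the early population, and from 41.6% to 14.2% for early minus late and 47.9% to 30% for early minus intermediate; it moved the median of all genes to -0.148 for the day 2 BMP4 comparison of early cultures. With 2 arrays a group and no detection calls, differences of genes near the filter are understated and may not be detectable.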

Other observations

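A fit of replicate 1 against replicate 2 within the 12 groups of days 1 and 2 was added after seeing the data (limma, a mean for each group, 11 residual degrees of freedom). It treats the 12 groups as independent, and the labels do not say whether arrays of the same replicate number share a source. If they do, its p-values do not measure the spread between such sources. Of the 30 genes 6 were higher in replicate 1: Krt14 by 1.61 ± 0.16 (adjusted p = 4.21e-06), Krt5 by 0.85 ± 0.14, Cdh1 by 0.69 ± 0.12, Trp63 by 0.67 ± 0.10, Cldn6 by 0.52 ± 0.14 and Wnt6 by 0.29 ± 0.09. Another 5 were higher in replicate 2, where the differences were -1.45 ± 0.11 for Krt19 (adjusted p = 6.59e-07), -0.65 ± 0.09 for F11r, -0.44 ± 0.08 for Jup, -0.42 ± 0.08 for Perp and -0.35 ± 0.08 for Krt18. Of all genes 7.41% were higher in replicate 1 and 7.56% in replicate 2. Krt14 passed the filter mostly through replicate 1 arrays, so its p-value here is descriptive.

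Taking Cdh1 and the other Epcam probe set as anchors was likewise added after seeing the data. The genes most like Cdh1 over the 30 arrays were Hbb-y, an embryonic globin (r = 0.929), and Rfxank (0.922). Those most like the other Epcam probe set were Fbln1, a matrix protein (0.896), and Hba-x, an embryonic globin (0.893).

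Sfn read 5.39 on replicate 1 and 4.26 on replicate 2 of the early day 2 BMP4 cultures. On the same 2 arrays Krt14 read 7.40 and 4.62, Cldn6 7.04 and 5.57, and the other Epcam probe set 6.16 and 4.33. Other genes of the set went the opposite way there. Replicate 1 minus replicate 2 was -1.80 for Krt19, -1.06 for F11r and -0.79 for Jup.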
